A study of Mus musculus with 8 samples.

Results

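The replication-dependent histone genes of the mouse were followed in RNA from jejunal mucosa. A gene was a member if its GENCODE M21 symbol began with Hist1 to Hist4 followed by the code of histone H1, H2A, H2B, H3 or H4, and if the symbol did not end in -ps, the mark of a pseudogene. The rule found 69 members among the 56980 gene identifiers of the count data, namely 6 for H1, 20 for H2A, 18 for H2B, 12 for H3 and 13 for H4. Of the members, 67 were annotated as protein-coding. The other two, Hist1h2aj and Hist1h2al, are listed as pseudogenes without the -ps mark and were kept.

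Tissue came from male littermates, raised in shared cages. The Adipoq-F2-KO mice carried FFA2 floxed alleles (gene Ffar2, a receptor for short-chain fatty acids) and a Cre transgene under the adiponectin promoter, which is active in adipocytes. The FFA2 fl/fl mice, called floxed controls, were homozygous for the floxed allele, and their label names no Cre. Mice of both genotypes were moved at 12 weeks of age from chow to a Western diet containing 10% fructooligosaccharides and were kept at thermoneutrality, and jejunal mucosa was scraped off after 2 weeks. There were 4 libraries per genotype, made from poly-A selected RNA. The comparison asked how transcript levels in the intestine differed when the receptor was deleted in fat cells. The Cre driver acts in fat cells, and the intestine is not its target.

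Replication-dependent histones package newly made DNA, and their genes are switched on as cells enter S phase, under the coactivator NPAT. H2A, H2B, H3 and H4 form the core particle around which DNA winds, and H1 is the linker histone that binds where DNA enters and leaves it. The mRNAs are unusual in lacking introns and in ending, in dividing cells, in a conserved stem-loop bound by SLBP rather than in a poly-A tail. In the intestine, dividing epithelial cells lie in the crypts, and cells that have left the cycle line the villi. Polyadenylated forms of some of these mRNAs are known, particularly in cells that no longer divide. Because the libraries were poly-A selected, the counts describe those forms and whatever untailed RNA was carried over, and the main, untailed pool was not measured.

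The stem-loop is shown because it is the feature that separates these mRNAs from others. A search downstream of the stop codon for the letters that are the same in all the forms listed here, with the others free, found it in the annotated transcripts of 46 members. The forms are written 5′ to 3′ as DNA, from the GENCODE M21 transcripts, with the paired stem in capitals and the loop in lower case:
common form, 26 members of H1, H2A, H2B and H3: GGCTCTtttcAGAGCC
second form, 6 members of H1, H2B and H3: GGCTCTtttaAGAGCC
Hist2h2ac form: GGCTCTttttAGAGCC
Hist1h3g form: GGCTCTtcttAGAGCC
H4 form, 7 members: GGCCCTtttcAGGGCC
H4 form of Hist2h4 and Hist1h4i: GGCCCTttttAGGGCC
H4 form of Hist1h4b and Hist1h4j: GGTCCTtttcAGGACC
H4 form of Hist1h4a: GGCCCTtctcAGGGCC

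The stem differed between H4 and the other classes, since none of the H4 forms was found outside H4 and none of the others inside it. The stem-loop began 21 to 58 bases after the stop codon. In 15 members the annotated transcript ended at the stop codon or at most 2 bases past it, so the stem-loop could not be read from it, and Hist1h1b is one of these. In 6 further members the annotation went on past that and the letters were not found, among them Hist1h2bc, the most abundant member, with 742 bases past the stop codon, and Hist2h2be with 2192. The 2 pseudogenes have no annotated stop codon. In 22 members the annotated transcript ran 300 bases or more past the stop codon. For Hist1h1c it went on 840 bases beyond the stem-loop, for Hist1h4d 770 and for Hist2h4 1257.

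Promoters were taken from RefSeq (GRCm38.p6) as 250 bases before and 50 bases after the annotated start, and 62 windows were matched to 61 members through older symbols. Those of Hist1h1b, Hist1h3b and Hist1h2bb are shown, the genes with the smallest p in H1, H3 and H2B. Those of Hist2h2ac and Hist1h4n, with the smallest p in H2A and H4, are not shown. Capitals mark 4 motifs, each read on both strands. The TATA box was searched as TATAAA. The box bound by the factor NF-Y was searched as CCAAT. The H1 box, known from linker histone promoters, was searched as AAACACA. The octamer, known from H2B promoters, was searched as ATTTGCAT. The promoters are:
Hist1h1b, chr13:21780576-21780875, minus strand: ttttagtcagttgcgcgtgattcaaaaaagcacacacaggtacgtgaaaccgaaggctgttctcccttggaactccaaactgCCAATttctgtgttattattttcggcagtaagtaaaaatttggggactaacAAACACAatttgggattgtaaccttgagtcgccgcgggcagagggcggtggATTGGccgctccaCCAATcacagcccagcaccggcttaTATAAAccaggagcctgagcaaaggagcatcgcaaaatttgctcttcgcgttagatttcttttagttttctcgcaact
Hist1h3b, chr13:23752095-23752394, plus strand: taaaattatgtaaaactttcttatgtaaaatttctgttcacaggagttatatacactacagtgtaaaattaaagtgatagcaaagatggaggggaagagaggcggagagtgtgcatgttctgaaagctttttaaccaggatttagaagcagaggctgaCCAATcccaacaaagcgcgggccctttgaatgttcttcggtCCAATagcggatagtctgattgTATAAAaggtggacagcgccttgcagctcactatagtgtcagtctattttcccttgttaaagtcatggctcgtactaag
Hist1h2bb, chr13:23746484-23746783, plus strand: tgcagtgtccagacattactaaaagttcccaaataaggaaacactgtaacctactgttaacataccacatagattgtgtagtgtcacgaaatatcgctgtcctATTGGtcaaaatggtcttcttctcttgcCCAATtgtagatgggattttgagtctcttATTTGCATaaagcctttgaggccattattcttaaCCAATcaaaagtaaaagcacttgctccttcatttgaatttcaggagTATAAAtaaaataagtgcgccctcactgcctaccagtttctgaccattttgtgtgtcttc

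In Hist1h1b the TATA box began 28 bases before the start and the H1 box 117 bases before it. In Hist1h3b the TATA box began 29 bases before the start, which RefSeq places downstream of the GENCODE start. In Hist1h2bb the octamer began 90 bases before the start. TATAAA was present in 56.5% of the members' windows and in 13.6% of all 32851 RefSeq windows. CCAAT was present in every matched window of H1, H2A, H2B and H3, in 25.0% of the H4 windows and in 37.4% of all windows. AAACACA was in 83.3% of the H1 windows against 7.18% of all windows. ATTTGCAT was in 41.2% of the H2A windows and 41.2% of the H2B windows, against 1.74% of all windows, and in none of the H1, H3 or H4 windows. Some H2A and H2B genes start head to head, so their windows can hold the same letters. A match of letters is a description and does not show that a factor binds there.

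Many members are near copies of each other, which limits what a 75-base read can tell. For each member the share of 75-base windows of its transcripts that also occurred in a gene at another place was counted. The median share was 0.735% for H1, 24.6% for H4, 36.8% for H2B, 52.4% for H3 and 68.0% for H2A. Of the 7 members with more than 90% shared windows, 6 had no count in any library and none was tested. Of the 41 members with at most 50% shared, 31 were tested. Hist1h1b shared no window with another gene. Values of members with high shares are uncertain, because a read that fits several places may be left out or assigned to either, and the setting used is not given in the sources used here. All 20 H2A members overlap exons of a gene on the opposite strand. The kit kept strand, but the strand setting of the counting is not given in the sources used here, so H2A counts are uncertain for that reason as well. Hist1h1e and Hist1h2be overlap on the same strand.

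**Figure D1:**
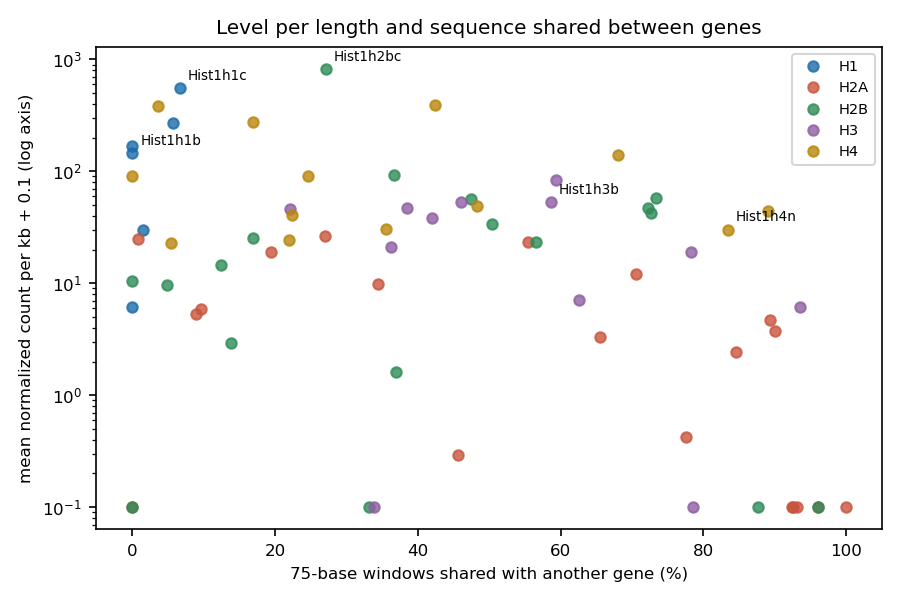
Each point is 1 of the 69 members, coloured by class. The horizontal axis gives the percentage of 75-base windows shared with another gene and the vertical axis, on a log scale, the mean normalized count per kb of annotated exons over 8 libraries, plus 0.1. Of the 7 members with over 90% shared windows, 6 lie at the bottom, at 0 counts.

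The libraries held between 6007654 and 21712776 counts, and 3 of them (floxed control 3 and Adipoq-F2-KO 3 and 4) were shallow, under 10000000. Enterocyte markers were abundant in all 8, with summed normalized counts of 336718 to 437821 over 7 genes that include Sis, Apoa4 and Fabp1, as a small intestinal sample would show. Ffar2 was low in both genotypes, with raw counts of 2 to 18 in controls and 3 to 13 in Adipoq-F2-KO. It is deleted in adipocytes, so its level here does not check the knockout. The summed smooth muscle markers ranged from 177 to 20680 normalized counts in controls and from 364 to 6939 in Adipoq-F2-KO, and floxed control 3 held the highest value. The summed B cell markers ranged from 8.51 to 289 in controls and from 103 to 416 in Adipoq-F2-KO, and Adipoq-F2-KO 2 held the highest value.

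Histone genes took up 0.0288% to 0.0590% of the counts of a library. Of the 69 members, 57 had at least 1 count and 43 reached the filter for testing, 10 counts in at least 4 libraries. The tested members were 5 of 6 for H1, 5 of 20 for H2A, 12 of 18 for H2B, 8 of 12 for H3 and 13 of 13 for H4. The 12 members with no count were 6 of H2A (Hist1h2aa, Hist1h2aj, Hist1h2ao, Hist1h2ap, Hist2h2aa1 and Hist2h2aa2), 4 of H2B (Hist1h2ba, Hist1h2bq, Hist1h2br and Hist2h2bb) and 2 of H3 (Hist2h3b and Hist2h3c1). A count of 0 over all 108278904 counts allows a level of up to 0.0277 CPM, counting error only. That bound does not hold for members whose reads may have been left out because they fit several places. Of the 12, 8 share over 50% of their windows and 6 share over 90%. A further 14 members had between 1 and 73 raw counts over the 8 libraries and were too low to test. They include Hist1h1t, the H1 gene of the testis, with 55.

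Counts are given as normalized counts, the read count divided by a size factor for the library, unless said otherwise. A few members made up most of the signal. Hist1h2bc held 20.1% of the summed count and Hist1h1c 18.2%, and with Hist1h1e, Hist1h4d, Hist1h4c and Hist1h1d they made 67.9%. By class, H1 took 34.2% to 43.0% of the members' sum in a library, H4 22.4% to 31.9%, H2B 20.6% to 29.8%, H3 5.25% to 7.41% and H2A 1.87% to 3.37%. These are shares of read counts, corrected neither for transcript length nor for shared windows, and the classes differ in both the share of such windows and the members at 0, so they do not rank the classes by RNA level. Members annotated 300 bases or more past the stop codon held 77.1% to 84.2% of the sum. Per kb of annotated exon, Hist1h2bc stood at 822, Hist1h1c at 552, Hist1h4h at 394 and Hist1h4d at 380 normalized counts. On that scale the replacement histone genes H1f0 and H3f3b, which are made outside S phase and carry poly-A tails, stood at 780 and 580, the highest of the 11 listed, and the other 9 ran from 2.33 (H1fx) to 366 (H2afv).

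In Adipoq-F2-KO, 1 of the 43 tested histone genes, the linker histone gene Hist1h1b, rose at an adjusted p below 0.05 (DESeq2), and none fell. The adjusted p of the other tested members was 0.993 or higher. Over all 15986 tested genes, 0.0375% passed in either direction and 0.0313% passed as higher (6 and 5 genes). The point estimates leaned one way, with 40 members above 0 and 3 below 0, while 48.5% of all tested genes were above 0. The median log2 fold change was 0.41 over the tested members and -0.0067 over all tested genes. At an unadjusted p below 0.05, 9 members (20.9% of those tested) were higher, where 1.65% of all tested genes were, and 0 were lower, where 1.38% of all tested genes were. In 6 members (14%) all 4 Adipoq-F2-KO libraries lay above all 4 controls, against 1.1% of all tested genes. None lay wholly below, against 1.02%. Genes that are regulated together, and reads that copies share, make these counts less than independent.

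These counts leaned on particular libraries. Adipoq-F2-KO 2 held the highest value of the 8 libraries in 26 of the 43 tested members (60.5%), against 11.4% of all tested genes. The same library held the highest summed B cell markers, 416, and their part in the histone values beyond leaving it out was not tested. Floxed control 4 held the lowest value in 14 members (32.6%, against 14.5% of all tested genes). Floxed control 2 did so in 11 (25.6%, against 8.98%). Without Adipoq-F2-KO 2 the median log2 fold change was 0.21, 32 of 43 members were above 0 and 2 were higher at an unadjusted p below 0.05. Without floxed control 2, the count at that threshold was 3. In the 5 deep libraries alone, the median was 0.61 and all 43 members were above 0. Their Adipoq-F2-KO group holds only Adipoq-F2-KO 1 and 2. In poly-A selected RNA of bulk tissue, the number of dividing cells, the histone RNA per cell and its tailed share cannot be told apart.

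**Figure D2:**
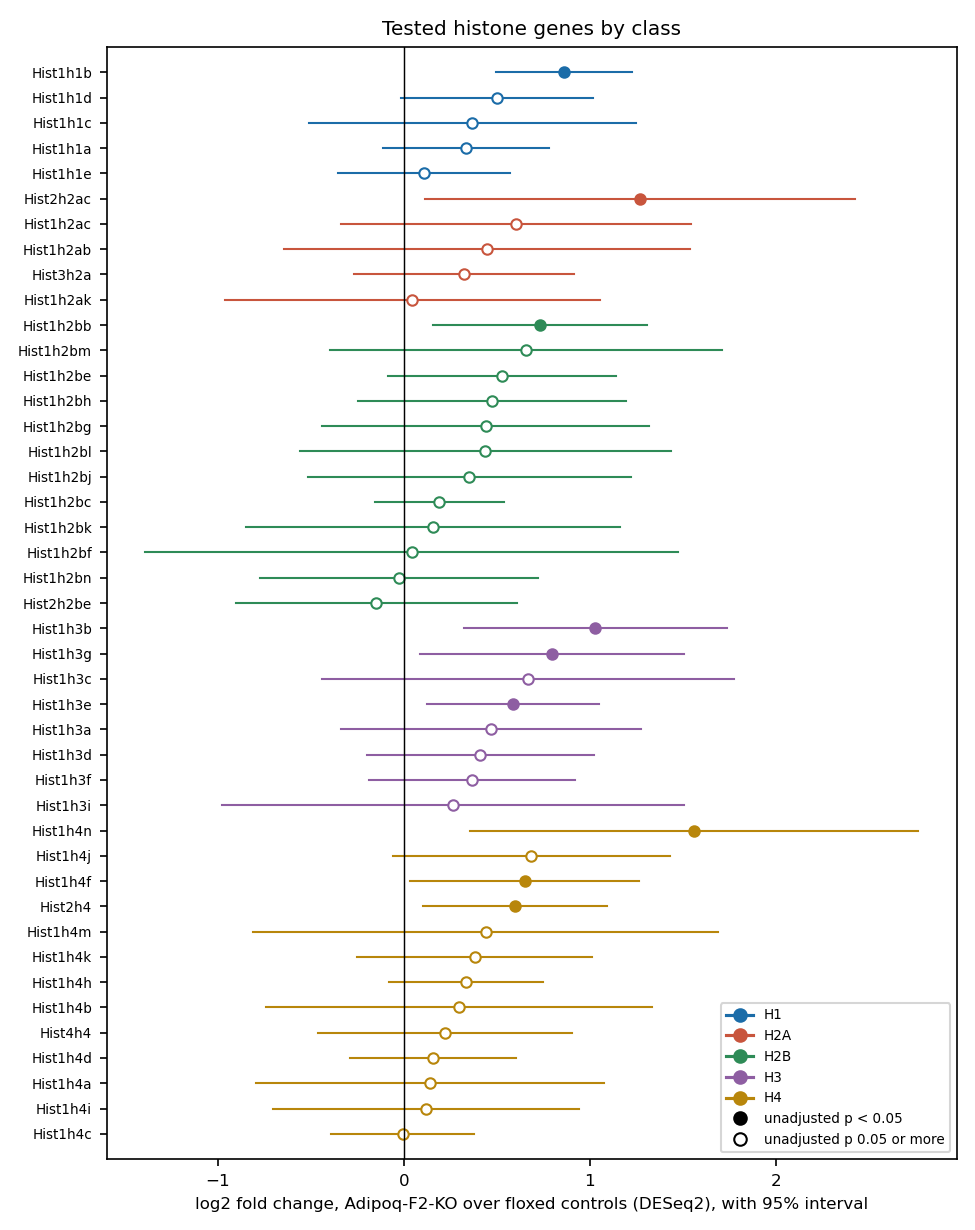
DESeq2 log2 fold changes (Adipoq-F2-KO over floxed controls, horizontal axis) of the 43 tested members, with 95% intervals, by class. Filled points have an unadjusted p below 0.05. Of the 43 points, 40 lie right of 0, and Hist1h4n at 1.56 is farthest right.

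The summed count of all 69 members was 4392, 4074, 5134 and 3454 in floxed controls 1 to 4 and 4695, 6641, 4987 and 4540 in Adipoq-F2-KO 1 to 4. The groups overlapped, with only Adipoq-F2-KO 2 above every control. The means were 4264 ± 699 and 5216 ± 968 (SD, n = 4 each), a log2 ratio of 0.29. Without Adipoq-F2-KO 2 the log2 ratio was 0.15. Because Hist1h1c and Hist1h2bc dominate the sum, it was also taken without them, which gave 2623 ± 406 and 3234 ± 610 (SD, n = 4 each).

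With all 8 libraries, H3 was the only class whose sums did not overlap. The H3 sums were 253, 228, 270 and 216 among the controls, against 303, 492, 286 and 293 in Adipoq-F2-KO, a ratio of 1.42. Adipoq-F2-KO 2 stood far above the rest, and without it the ratio was 1.22 with the sums still apart. The H2A sums were 109, 99.1, 96.2 and 93.6 among the controls, against 99.5, 169, 168 and 118 in Adipoq-F2-KO, a ratio of 1.39 with Adipoq-F2-KO 1 inside the control range, and of 1.29 without Adipoq-F2-KO 2. The order of H3 and H2A turned without Adipoq-F2-KO 2, and also without Adipoq-F2-KO 1 (1.48 and 1.53). H1 had a ratio of 1.25, H4 of 1.18 and H2B of 1.17, and their ranges overlapped. The H1 and H2B sums were apart without floxed control 3. The H2A sums were apart without floxed control 1 or without Adipoq-F2-KO 1. Median log2 fold changes over tested members were 0.53 for H3, 0.45 for H2A, 0.39 for H2B, 0.37 for H1 and 0.33 for H4. Whether the classes differed from each other was not tested.

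**Figure D3:**
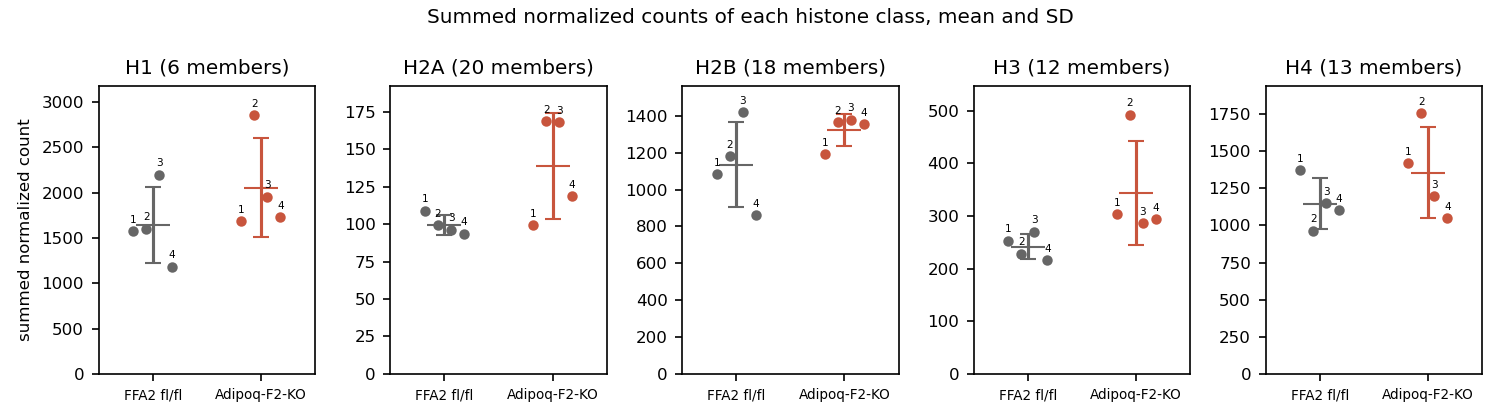
Summed normalized counts of each class in each library (points, numbered by replicate) with the mean and SD of the 4 libraries per genotype. The vertical axes start at 0. H3 sums lie between 216 and 270 in floxed controls and between 286 and 492 in Adipoq-F2-KO, and the other 4 classes overlap.

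Linker histones. H1 proteins bind the nucleosome from outside and help compact the chromatin fibre, and mammals have several somatic subtypes. All 5 tested H1 genes had positive log2 fold changes, from 0.11 to 0.86, and 1 of 5 was called. Hist1h1b (chr13:21779883-21780625, minus strand, 1 exon, GRCm38) encodes the subtype H1.5. Its normalized counts were 77.5, 66.4, 100.4 and 71.2 in floxed controls 1 to 4 and 148, 143, 140.1 and 122 in Adipoq-F2-KO 1 to 4. All 4 Adipoq-F2-KO values lay above all controls, and Adipoq-F2-KO 2, the highest library for most tested members, came second here. The estimated log2 fold change was 0.86 (standard error, SE, 0.19) and its 95% interval ran from 0.49 to 1.22 (DESeq2, adjusted p = 0.0212). The size of the change was stable and the call was not. Over 17 alternative analyses the log2 fold change stayed between 0.77 and 1.01 and the adjusted p ranged from 1.7e-04 to 0.999, the latter with edgeR's quasi-likelihood test (unadjusted p = 4.2e-04). Leaving out any library other than floxed control 3 ended the call, with an adjusted p of 0.0537 to 0.329 (DESeq2).

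The subtype gene Hist1h1d (H1.3) had counts of 158, 126, 282 and 180.3 among the controls, against 187, 330, 250.3 and 274 in Adipoq-F2-KO. Floxed control 3 lay among the Adipoq-F2-KO values, and the log2 fold change of 0.50 did not pass (unadjusted p = 0.0565, DESeq2). Hist1h1a (H1.1) had counts of 124, 89.1, 142 and 96.0 in floxed mice against 149.99, 164, 144 and 95.9 in Adipoq-F2-KO. The groups overlapped, with Adipoq-F2-KO 4 at the level of the lower controls (log2 fold change 0.33). The most abundant linker histone, Hist1h1c (H1.2), had counts of 777, 1000.4, 914 and 317 among the controls, against 684, 1599.6, 885 and 711 in Adipoq-F2-KO. Both genotypes were widely spread, with floxed control 4 lowest and Adipoq-F2-KO 2 highest. Its log2 estimate was 0.37, SE 0.45, so the 95% interval ran from -0.51 to 1.25. Without Adipoq-F2-KO 2 the estimate was 0.015, and without floxed control 4 it was 0.12. Hist1h1e (H1.4) had counts of 434, 313, 759 and 517 in floxed mice against 507, 612, 527 and 519 in Adipoq-F2-KO. All Adipoq-F2-KO values lay inside the control range, and the log2 fold change was 0.11.

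H2A genes. H2A pairs with H2B in the core particle. Only 5 of the 20 H2A genes were tested, all with positive log2 fold changes (0.045 to 1.27), and 0 of 5 passed the adjustment. Hist2h2ac (chr3:96220361-96220880, minus strand) had raw counts of 11, 11, 3 and 5 among the controls, against 11, 22, 13 and 4 in Adipoq-F2-KO. After normalization these were 6.66, 5.80, 6.27 and 3.87 against 8.68, 13.6, 26.0 and 7.52. The groups did not overlap, but Adipoq-F2-KO 4 rests on 4 reads and the shallow floxed control 3 on 3. The estimated log2 fold change was 1.27 (SE 0.59, unadjusted p = 0.0311, DESeq2 adjusted p = 0.9998), and without Adipoq-F2-KO 3 it was 0.87 (unadjusted p = 0.177). Hist3h2a, the H2A gene of the small cluster on chromosome 11, had tightly grouped controls at 48.5, 46.4, 43.9 and 48.0. Its Adipoq-F2-KO values were 31.6, 68.8, 74.1 and 63.9, so 3 libraries were above all controls and 1 was below them all. Hist1h2ac, the second most abundant of the tested H2A genes, had counts of 11.5, 11.6, 16.7 and 7.74 in floxed mice against 10.3, 25.4, 14.01 and 18.8 in Adipoq-F2-KO. The values overlapped (log2 fold change 0.60, SE 0.48, and 0.28 without Adipoq-F2-KO 2).

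H2B genes. Of 12 tested H2B genes, 10 had positive and 2 negative log2 fold changes, from -0.15 (Hist2h2be) to 0.73, and 0 of 12 passed the adjustment. Hist1h2bb (chr13:23746734-23747241, plus strand) had counts of 51.5, 34.3, 20.9 and 31.0 among the controls, against 56.8, 65.1, 56.1 and 58.3 in Adipoq-F2-KO. The Adipoq-F2-KO values were close together and above all controls, and the controls were spread. The estimated log2 fold change was 0.73 (SE 0.29, unadjusted p = 0.0128, DESeq2 adjusted p = 0.9998). Hist1h2be had counts of 34.5, 31.1, 56.5 and 21.67 in floxed mice against 44.2, 52.7, 48.1 and 52.6 in Adipoq-F2-KO. Floxed control 3 was the highest library, and the other controls lay below all Adipoq-F2-KO values (log2 fold change 0.53). Hist1h2bh had counts of 23.0, 23.7, 20.9 and 14.7 in floxed mice against 26.8, 38.4, 18.0 and 28.2 in Adipoq-F2-KO. Adipoq-F2-KO 3 lay inside the control range and the other three above it (log2 fold change 0.48, and 0.25 without Adipoq-F2-KO 2). Hist1h2bc, the most abundant member and one with 2 annotated exons, had counts of 796, 936, 1154 and 670.2 among the controls, against 894, 923, 1147 and 1087 in Adipoq-F2-KO. Those ranges overlapped almost fully, and the log2 fold change of 0.19 had a 95% interval of -0.16 to 0.54. Over the 17 alternative analyses this estimate ran from 0.078 to 0.33.

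H3 genes. H3 is the core histone that carries much of the regulatory methylation and acetylation. All 8 tested H3 genes had positive log2 fold changes, from 0.26 to 1.03. At an unadjusted p below 0.05, where 1.65% of all tested genes were higher, 3 of 8 were, though 0 of 8 passed the adjustment. Hist1h3b (chr13:23752267-23752886, plus strand) had counts of 18.2, 17.9, 35.5 and 20.1 among the controls, against 39.5, 63.2, 34.0 and 35.7 in Adipoq-F2-KO. Floxed control 3 lay beside Adipoq-F2-KO 3 and 4, which are shallow as well, and the other 3 controls lay below all Adipoq-F2-KO libraries. The estimated log2 fold change was 1.03 (SE 0.36, unadjusted p = 0.00435, DESeq2 adjusted p = 0.993). Of its windows, 58.6% were shared with other genes. Hist1h3e had counts of 62.4, 48.0, 58.6 and 58.8 among the controls, against 75.8, 109.7, 78.1 and 71.4 in Adipoq-F2-KO. The groups did not overlap, and the log2 fold change was 0.59 (unadjusted p = 0.0126). Hist1h3g had counts of 16.4, 20.6, 18.8 and 28.6 in floxed mice against 37.9, 50.2, 30.03 and 24.4 in Adipoq-F2-KO, with Adipoq-F2-KO 4 below floxed control 4 (log2 fold change 0.80, unadjusted p = 0.0277, and 0.57 with an unadjusted p of 0.170 without Adipoq-F2-KO 2). Hist1h3d had counts of 51.5, 48.0, 66.9 and 34.1 in floxed mice against 49.7, 93.6, 50.05 and 63.9 in Adipoq-F2-KO. Only Adipoq-F2-KO 2 was above all controls (log2 fold change 0.41, and 0.15 without that library).

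H4 genes. H4 is among the most conserved proteins, and many genes encode the same protein. All 13 H4 genes were tested, and 12 had positive log2 fold changes. At an unadjusted p below 0.05, where 1.65% of all tested genes were higher, 3 of 13 were, and 0 passed the adjustment. Hist1h4f (chr13:23551258-23551648, minus strand) had counts of 33.3, 17.4, 29.3 and 31.0 among the controls, against 47.4, 43.4, 44.05 and 35.7 in Adipoq-F2-KO. All 4 Adipoq-F2-KO values were above all controls (log2 fold change 0.65, SE 0.31, unadjusted p = 0.0385). Hist2h4 (chr3:96261682-96263311, minus strand), with 0% shared windows, had counts of 134, 112, 125 and 108 among the controls, against 182, 268, 130.1 and 132 in Adipoq-F2-KO. Adipoq-F2-KO 1 and 2 were above the controls, and 3 and 4 lay within their range. The log2 fold change was 0.60 (SE 0.25, unadjusted p = 0.0182), and it rested on Adipoq-F2-KO 2, without which it was 0.33 (unadjusted p = 0.126, DESeq2). In the 5 deep libraries, where the Adipoq-F2-KO group holds just these 2 high libraries, it was 0.93 with an adjusted p of 0.0489 (DESeq2).

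Hist1h4n had the largest log2 fold change of the tested members, 1.56 (SE 0.61, unadjusted p = 0.0110), and one of the lowest counts. Its raw counts were 10, 6, 6 and 7 among the controls, against 17, 13, 15 and 13 in Adipoq-F2-KO, and 83.4% of its windows were shared. The normalized counts of 6.06, 3.16, 12.5 and 5.42 against 13.4, 8.06, 30.03 and 24.4 were highest, within each genotype, in the shallow libraries, 2 of which are Adipoq-F2-KO. In the 5 deep libraries alone its log2 fold change was 1.14 (DESeq2, unadjusted p = 0.152), and without Adipoq-F2-KO 3 it was 1.25 (unadjusted p = 0.0672). In its neighbour Hist1h4m, with 89.0% shared windows, the shallow libraries were likewise high, at 35.5, 24.0 and 33.8, against 6.19 to 12.6 in the deep ones. The most abundant H4 genes did not separate the genotypes. Hist1h4d had counts of 503, 337, 376 and 425 in floxed mice against 489, 645, 348 and 337 in Adipoq-F2-KO, where Adipoq-F2-KO 2 alone was above the controls. Hist1h4c had counts of 245, 166, 247 and 258 in floxed mice against 253, 257, 214 and 177 in Adipoq-F2-KO. Its groups overlapped fully, and the 95% interval of its log2 fold change was -0.39 to 0.38.

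**Figure D4:**
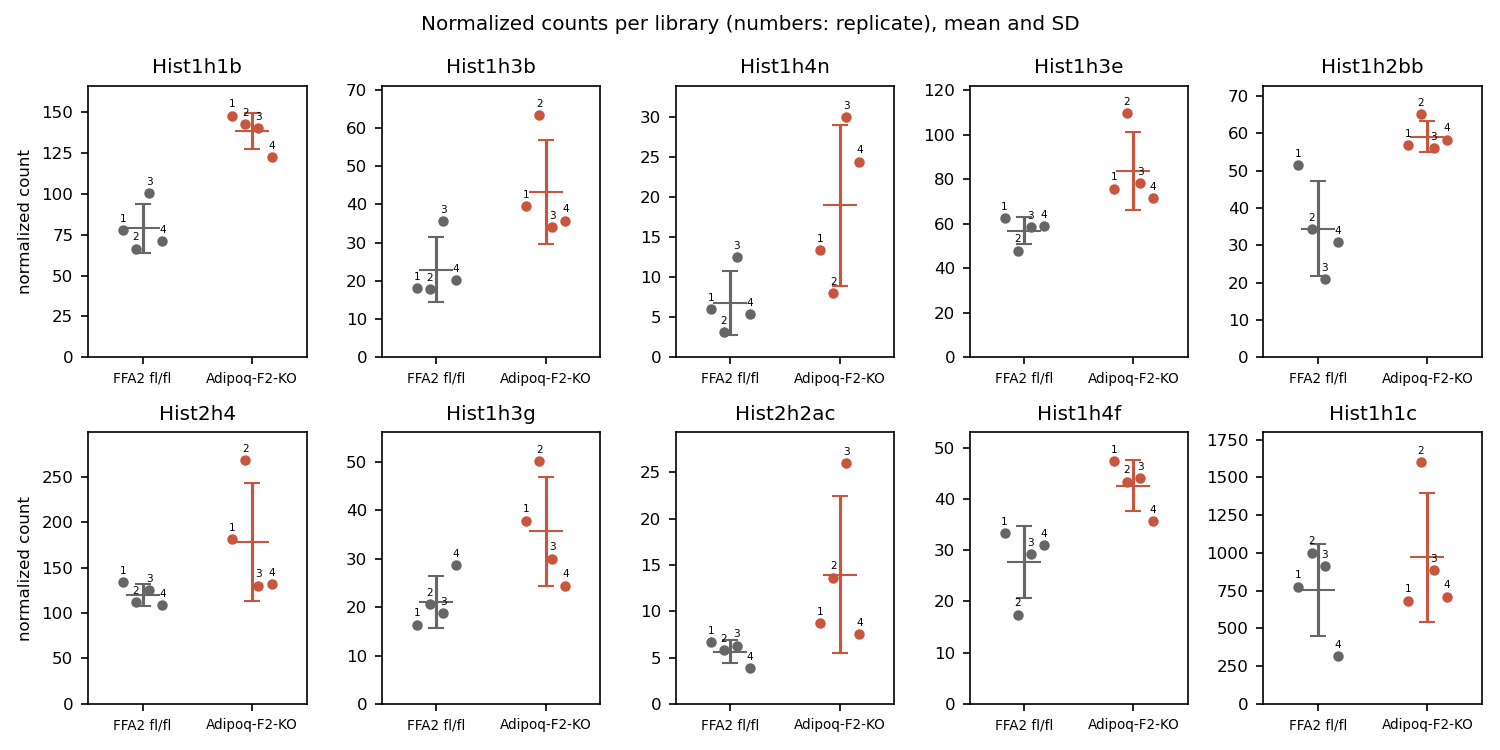
Normalized counts in each library (points, numbered by replicate), with mean and SD of 4 libraries per genotype, for the 9 members with an unadjusted p below 0.05 and for the abundant Hist1h1c. The vertical axes start at 0. In Hist1h1b the Adipoq-F2-KO libraries lie between 122 and 148, above controls of 66.4 to 100.4, and in Hist1h1c the genotypes overlap.

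Most members, 56 of 69, lie on chromosome 13, with 10 on chromosome 3, 2 on chromosome 11 and 1 on chromosome 6. Except for the pseudogene Hist1h2al, which lies apart, the chromosome 13 members form 3 groups. In the first (chr13:21715763-21837530), which holds Hist1h1b, 10 of 19 members were tested with a median log2 fold change of 0.44, and the summed counts did not overlap, at 193 to 272 in controls and 284 to 385 in Adipoq-F2-KO. That separation rested on Hist1h1b, since without it the sums overlapped, at 122 to 171 in controls and 162 to 242 in Adipoq-F2-KO. In the second (chr13:22035164-22043676), 3 of 5 were tested, with a median of 0.16. In the third (chr13:23531050-23934851), 25 of 31 were tested with a median of 0.44, and the sums overlapped. Members with annotated transcripts ending less than 300 bases past the stop codon had a median of 0.44 and the longer ones 0.37. Their summed counts had ratios of 1.39 and 1.19. Members sharing over 50% of their windows and those sharing less both had a median of 0.41, but ratios of 1.38 and 1.21. Whether these sets differed was not tested.

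Partners of the histone genes were read from lists of genes. Of the 19 tested genes for histone transcription and mRNA processing, 13 had positive and 6 negative log2 fold changes, with a median of 0.09. At an unadjusted p below 0.05, 1 was higher (against 1.65% of all tested genes) and 0 were lower (against 1.38%), and 0 passed the adjustment. The one gene was Ccne2, a cyclin that drives entry into S phase through CDK2. Its counts were 76.9, 111, 153 and 63.5 among the controls, against 228, 143, 196 and 188 in Adipoq-F2-KO (log2 fold change 0.93, SE 0.28, DESeq2 adjusted p = 0.487). Its relative Ccne1 had a log2 fold change of 0.68 (unadjusted p = 0.0566), with all Adipoq-F2-KO libraries above the controls. Slbp, whose protein binds the stem-loop, had counts of 205, 198, 217 and 217 among the controls, against 231, 222, 330.3 and 233 in Adipoq-F2-KO. The groups were apart, but the log2 fold change of 0.27 did not pass (unadjusted p = 0.0957). Npat was 147 ± 19.9 and 182 ± 39.9 (SD, n = 4 each), with overlapping values. The most negative estimate was that of Lsm10, a subunit of the U7 particle that helps cut the 3′ end of histone mRNA. Its counts were 33.3, 38.5, 31.4 and 35.6 among the controls, against 16.6, 27.9, 34.0 and 20.7 in Adipoq-F2-KO, so 3 libraries were below all controls (log2 fold change -0.53, unadjusted p = 0.106). Its U7 partner Lsm11 had -0.25 and Hinfp, an activator of H4 genes, -0.18.

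Replacement histones are mostly deposited independently of replication. Of 9 tested, 8 had positive log2 fold changes with a median of 0.15, and 0 had an unadjusted p below 0.05. H2afx, the variant phosphorylated at DNA breaks, was 106 ± 14.9 and 130 ± 20.99 (SD, n = 4 each), and H3f3b, a gene for H3.3, was 1643 ± 178 and 1812 ± 60.9 (SD, n = 4 each). Without Adipoq-F2-KO 2 the median was 0.16, beside 0.21 for the histone genes, and whether the lists differed was not tested. Of 20 tested histone chaperones, which carry histones to DNA, 17 had positive log2 fold changes with a median of 0.13. At an unadjusted p below 0.05, where 1.65% of all tested genes were higher, 2 of the chaperones were. These were Rbbp7 (0.27, unadjusted p = 0.0329), a histone-binding partner of the acetyltransferase HAT1, and Asf1a (0.40, unadjusted p = 0.0428), which hands H3 and H4 to assembly factors.

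Genes of the dividing cell leaned the same way. The summed G2 and mitosis genes were apart between the genotypes, at 2306 to 2781 normalized counts in controls and 2877 to 3289 in Adipoq-F2-KO, a ratio of 1.21, whereas the histone sums overlapped at a ratio of 1.22. The summed DNA replication genes were also apart, narrowly, at 3341 to 3760 and 3764 to 4184. Medians were below that of the histone genes with all libraries, but without Adipoq-F2-KO 2 they were 0.21 for the histone genes, 0.22 for DNA replication and 0.27 for G2 and mitosis. Whether these lists differed from the histone genes was not tested. Over all tested genes, 48.5% had positive log2 fold changes and 1.65% were higher at an unadjusted p below 0.05. Of 40 tested DNA replication genes, 34 had positive log2 fold changes with a median of 0.19 (0.11 without Adipoq-F2-KO 4). Of these 40, 3 were higher at that threshold and 0 were lower. The helicase subunit Mcm4 was 85.8 ± 4.804 and 115 ± 15.1 (SD, n = 4 each), with the groups apart, and Clspn, a checkpoint adaptor at the fork, was 39.2 ± 8.81 and 56.6 ± 10.99. Of 21 tested genes of G2 and mitosis, 21 had positive log2 fold changes with a median of 0.25, and 5 were higher at an unadjusted p below 0.05. The smallest p were those of Ccnb2, a mitotic cyclin (0.69, DESeq2 adjusted p = 0.742), and Ube2c, an E2 enzyme of the anaphase-promoting complex (0.57, unadjusted p = 0.0148). In all 5 of these lists, 0 genes passed the adjustment and 0 were lower at an unadjusted p below 0.05. Set beside the summed DNA replication genes, the summed histone count was 103% to 137% in controls and 109% to 176% in Adipoq-F2-KO, with Adipoq-F2-KO 2 at 176% and the other 7 libraries at 137% or below.

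**Figure D5:**
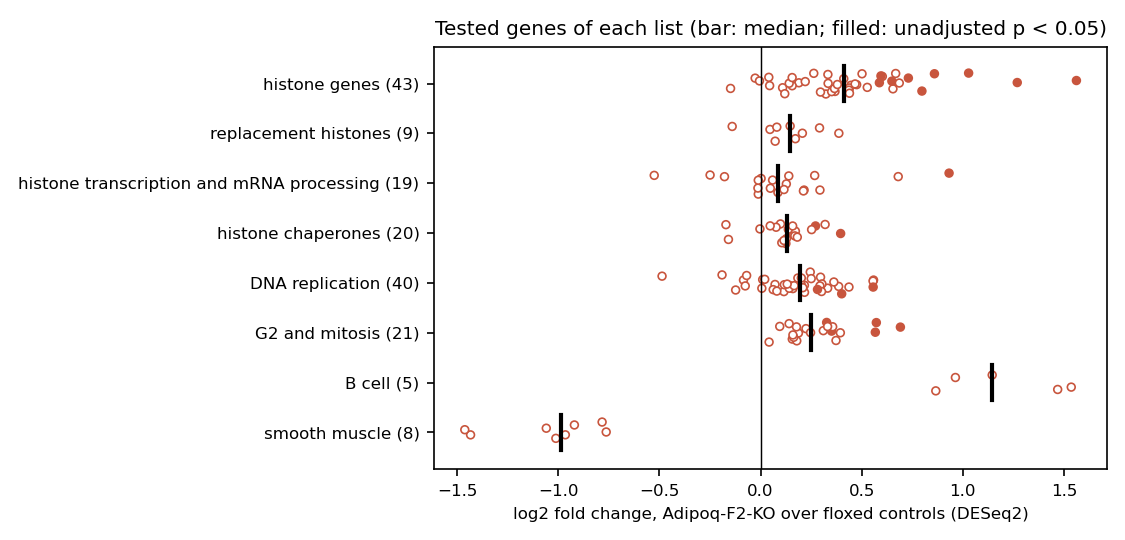
DESeq2 log2 fold changes (horizontal axis) of the tested genes in each list, with the median as a bar and the number of genes in brackets. Filled points have an unadjusted p below 0.05. The medians run from 0.41 for the histone genes through 0.25 for G2 and mitosis to 0.09 for histone transcription and mRNA processing, with B cell markers at 1.15 and smooth muscle markers at -0.99.

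Several marker lists of other cell types had medians away from 0, with overlapping sums. The part of smooth muscle was examined with a covariate, and that of the other cell types in the histone values was not tested. All 5 B cell markers had positive log2 fold changes (median 1.15, smallest p for Cd79b and Cd79a), with the wide ranges given above. All 6 macrophage markers did too (median 0.54, smallest p for C1qb and C1qa), with sums of 123 to 398 in controls and 269 to 485 in Adipoq-F2-KO. All 8 smooth muscle markers were negative (median -0.99, smallest p for Tagln and Cnn1). No gene of these 3 lists had an unadjusted p below 0.05. Of the T cell markers, 4 of 6 were positive (median 0.29), and Cd2 had a log2 fold change of 1.35 (unadjusted p = 0.0242), followed by Trac. Markers of germinal centre B cells, the dividing B cells of lymphoid follicles, showed little displacement (median 0.06, 3 of 4 positive, smallest p for Rgs13 and S1pr2). With the smooth muscle score in the model, the median over the histone genes was 0.41 and 41 of 43 were positive.

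The remaining lists held no gene with an unadjusted p below 0.05. The medians were 0.01 for 7 enterocyte markers (smallest p for Sis and Apoa4, and so on for each list), -0.09 for 4 tested crypt stem markers (Axin2 and Olfm4), 0.03 for 4 Paneth markers (Itln1 and Mmp7), -0.02 for 4 goblet markers (Tff3 and Clca1), -0.09 for 5 enteroendocrine markers (Neurod1 and Gip), 0.01 for 4 tuft markers (Trpm5 and Avil) and 0.03 for 4 tested plasma cell markers (Sdc1 and Xbp1). Of the adipocyte markers only Cfd was tested (-0.22), and the summed list ranged from 3.63 to 332 in controls and from 4.74 to 154 in Adipoq-F2-KO. The summed crypt stem markers were 1193 to 1908 in controls and 1388 to 1811 in Adipoq-F2-KO. These ranges overlapped.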

How the data were processed

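Messenger RNA of jejunal mucosa was sequenced in 4 libraries per genotype with 75-base single-end reads. Per the labels and methods, the authors trimmed reads with Trimmomatic, aligned them with STAR and counted them with featureCounts. Deposited values are raw read counts per Ensembl gene, neither normalized nor pooled. The submitters' processing notes name GRCm38 and mm10. The annotation release is not given in the sources used here, and 4907 of 56980 identifiers were absent from GENCODE M21, whose symbols and GRCm38 coordinates are used. Nothing says which libraries share a litter.

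The 15986 genes that reached 10 counts in 4 or more libraries entered DESeq2 1.42.0 in R 4.3.3, genotype as the only term, two-sided Wald tests and Benjamini-Hochberg adjustment over all tested genes, and the scripts were tested on simulated counts. An adjusted p was missing for 8 genes. Intervals are 1.96 standard errors either side. Alternatives were edgeR 4.0.16, limma-voom 3.58.1, other scalings and filters, a replicate block, a smooth muscle covariate, the 5 deep libraries and each library left out. Values per library are given for members with an adjusted p below 0.05, and in each class for the 3 with the smallest p and the 2 with the highest mean count. Of each list, the 2 genes with the smallest p are named, and Slbp and Npat always. A few genes outside this rule (Hist1h4m, Hist1h4h, Hist1h1t, Hist2h2be, Lsm10, Lsm11, Hinfp, H1fx, H2afv, H1f0) were named after their values were seen. Stem-loops, shared windows and promoter letters were searched as exact matches. Members and lists were chosen with earlier results of these data known, and the split at 300 bases was set after the annotation was seen. No duplicate library was found within a genotype (chi-square per gene 5.04 to 56.6).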

Additional observations from a re-analysis of the deposited data

Results flagged for a closer look

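Among 54 groups of 4 values (21 named members, the 5 class sums and the sum of all members, in each genotype), 4 held a library set far apart from the other three by Dixon's gap test, and chance alone gives about 1 in 20. Hist1h3b was 35.5 normalized counts in floxed control 3 against 17.9 to 20.1 in the other controls. Hist1h4c was 166 in floxed control 2 against 245 to 258. The H2B sum was 1190 in Adipoq-F2-KO 1 against 1354 to 1379 in the other Adipoq-F2-KO libraries. The H3 sum was 492 in Adipoq-F2-KO 2 against 286 to 303. The lone high value of Hist1h3b is in a control and lowers its difference between genotypes, and the lone high H3 sum is in Adipoq-F2-KO and raises it.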

How the results depend on the processing

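In each of the 17 alternatives the median log2 fold change of the tested histone genes stayed above 0, 0 members were lower at an unadjusted p below 0.05, and the summed count kept its direction in the 11 that change it. Members past the adjustment numbered 1 in the reported analysis, 2 in the 5 deep libraries (Hist1h1b and Hist2h4), 0 with edgeR and 0 with limma-voom. At an unadjusted p below 0.05 the members higher numbered 9 as reported, 10 with edgeR and 12 with limma-voom. The median was 0.61 in the 5 deep libraries. Leaving out 1 library at a time gave 0 to 1 members past the adjustment, 2 to 13 higher at an unadjusted p below 0.05 (the lowest without Adipoq-F2-KO 2, then 3 without floxed control 2), medians of 0.21 to 0.52 and log2 ratios of the summed count of 0.15 to 0.39. Size factors computed without the histone genes left the median at 0.41.

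With the replicate number as a block, 0 members passed the adjustment, 5 were higher at an unadjusted p below 0.05 and the median was 0.37. Deviations of same-numbered libraries correlated at 0.54, 0.29, 0.01 and -0.42, which gave no uniform sign of pairing by number. The numbers are those of the sample titles, so pairing by litter could not be tested with them.

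Of the named members, Hist1h1b passed in 7 of 17 alternatives. Hist1h4c, -0.0051 as reported, was positive with limma-voom (0.049), with the smooth muscle covariate (0.025) and in the 5 deep libraries (0.19), and ran from -0.14 to 0.088 with 1 library left out. With 1 library left out, Hist1h1e ran from -0.064 (without floxed control 2) to 0.37 and Hist1h4d from -0.062 (without Adipoq-F2-KO 2) to 0.27. Without Adipoq-F2-KO 2, 7 of the 21 named members had an estimate reduced by more than 1.5 times or reversed (Hist1h1c, Hist1h1e, Hist1h2ac, Hist1h2bh, Hist1h3d, Hist1h4d and Hist2h4), against 0 to 4 without any other library. The class ratios and the medians of the histone partner, DNA replication and mitosis lists with each library left out, and the chromosome 13 sum without Hist1h1b, were chosen after seeing the data. The DNA replication median ran from 0.11 (without Adipoq-F2-KO 4) to 0.23, that of G2 and mitosis from 0.24 to 0.31, of replacement histones from 0.096 (without floxed control 4) to 0.16, of chaperones from 0.096 to 0.16, of transcription and processing from 0.041 (without floxed control 1) to 0.099, and the H3 ratio ran from 1.22 to 1.501. Depth limits the low members most, since 3 counts are 0.138 to 0.499 CPM in a library. The cause of these changes was not tested.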
